A study of Mus musculus with 8 samples.

Results

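Chromatin-associated RNA of mouse embryonic fibroblasts was compared after a heat shock with recovery and without one. The comparison takes 2 of the 8 samples of the series, chosen by their titles, and pairs the length- and depth-scaled read level (RPKM) of each gene by its Ensembl identifier. All cells were TSC2+/+ on a C57BL/6J background. One culture was kept at 42 °C for 1 h and then at 37 °C for 3 h, and the other was left unstressed. Each condition has 1 library, so no test was possible and every value describes these libraries. The cytoplasmic fractions of both conditions, also 1 library each, are given beside the chromatin values. The libraries of m6A immunoprecipitation and their inputs were not analysed here.

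Heat shock unfolds proteins and releases the transcription factor HSF1, which binds heat shock elements and drives genes of molecular chaperones. HSP70, HSP90, small heat shock proteins and their co-chaperones then hold and refold clients. ATF4 is the transcription factor of the integrated stress response and drives genes of amino acid synthesis, uptake and tRNA charging. RNA in the chromatin pellet is rich in unspliced and newly made transcripts, so it follows transcription more closely than cytoplasmic RNA does.

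Library totals recovered from the values ran from 8292312 to 19536459 reads, with 18364642 in chromatin without heat shock and 19536459 after it. Of 27491 genes with a read in either chromatin library, 12921 held at least 50 reads over both and were kept. The files give no gene names. A name was used here only where the identifier recalled from general knowledge for a symbol had a gene span, recovered from the RPKM values, within 5% of the RefSeq span of that symbol, which held for 667 of 899 identifiers that could be checked. Names that met only a wider rule (within 25%, or a whole multiple), chosen after the first rule was seen to leave out genes such as Hsph1, are called wider-rule names and are less certain. The fibroblast markers were present: all 13 had reads after heat shock and 11 without, when Pdgfrb and Lum were at 0. They summed to 112912 reads (116 RPKM) without heat shock and 30514 reads (45.5 RPKM) after it. Fn1 held most of these reads in both libraries. Markers of blood cells (7 named) summed to 22 reads in unstressed cells and 698 in heat-shocked cells. In the same order the 3 named endothelial markers summed to 24 and 148 reads, and the 7 muscle markers to 8 and 120. The 7 epithelial markers summed to 1969 and 3099 reads (22.7 and 30.9 RPKM). The 4 neural markers summed to 128 and 76 reads, and the 4 pluripotency markers to 21 and 12. Apart from fibroblast and epithelial markers, no type summed to more than 7.43 RPKM in a chromatin library.

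After heat shock 2216 of the 12921 kept genes were at least 2-fold higher, which is 17.2%, and 2394 were at least 2-fold lower, which is 18.5%. Counts of list members below are to be read against these shares. The median log2 ratio was -0.09. The split between higher and lower depends on the scale. On the deposited scale 48.1% of the genes past 2-fold were higher. The share was 61.2% when the 10 genes with the most reads were left out of the totals. It was 55.8% without named mitochondrial genes and the 2 named loci that collect ribosomal RNA reads. With both libraries set to the same RPKM sum it was 21.0%. That last scale lowers every log2 ratio by 0.64, so moderate increases below are to be read against it. The scales that leave genes out of the totals raise every log2 ratio, by 0.22 and 0.13 in the order given. Moderate decreases below are to be read against those. In cytoplasm the ratios lay lower: of 8440 kept genes with at least 50 cytoplasmic reads 4.76% were at least 2-fold higher and 21.6% at least 2-fold lower, with a median log2 ratio of -0.62. Cytoplasmic ratios below are to be read against that median. Of the genes that were higher in chromatin, 534 were at least 10-fold higher, whereas 59 were at least 10-fold lower. Among the higher genes 22.2% had at most 10 reads without heat shock. Such genes passed the minimum of 50 reads only through their reads after heat shock, so they are past 2-fold higher by construction. Intervals given below are exact 95% Clopper-Pearson intervals on read numbers. They describe counting error alone, and since no molecular identifiers were used, copies of 1 molecule may be counted repeatedly. In these bulk libraries fewer cells and less RNA per cell cannot be told apart.

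**Figure D1:**
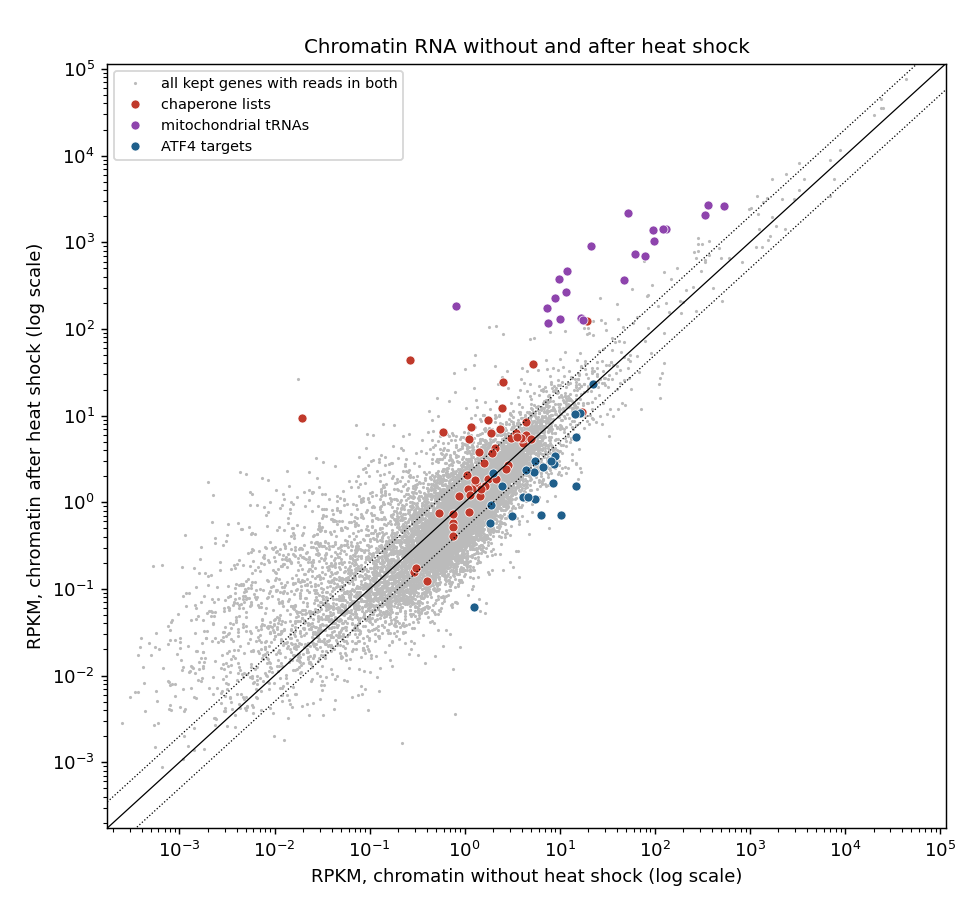
RPKM of each kept gene in chromatin without heat shock (x axis, log scale) and after it (y axis, log scale); the solid line marks equal values and dotted lines a 2-fold difference. The 22 mitochondrial tRNAs lie above the upper dotted line, and 17 of 24 ATF4 targets lie below the lower one.

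Several chaperone genes had large ratios. Over 5 chaperone lists, 14 of 50 kept members were at least 2-fold higher (28.0%, against 17.2% of all kept genes) and 1 was at least 2-fold lower, with a median log2 ratio of 0.42. With wider-rule names the counts were 22 higher and 5 lower of 68. Of the same 50 genes, 46 had at least 50 cytoplasmic reads, and there 5 were at least 2-fold higher and 4 at least 2-fold lower, with a median log2 ratio of -0.32 against -0.62 for all genes.

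Promoter sequence is shown for 4 chaperone genes with large increases, because the heat shock element is the site at which HSF1 is known to act. The 4 are examples that each hold a match and were not picked by rank. Hspa4l, with a larger ratio than Hspe1, is not shown. Each run is the 150 bases before a RefSeq transcript start in GRCm38.p6, 5′ to 3′ on the gene's strand, and capitals mark matches to GAANNTTC or TTCNNGAA, each of which reads the same on both strands. The regions are chr17:34959239-34959388 (minus strand) for Hspa1b, chr5:135887769-135887918 (plus) for Hspb1, chr1:55087998-55088147 (plus) for Hspe1 and chr5:149636337-149636486 (minus) for Hsph1, a wider-rule name whose annotated gene span begins upstream of the start used, so that its run lies inside the span.
Hspa1b: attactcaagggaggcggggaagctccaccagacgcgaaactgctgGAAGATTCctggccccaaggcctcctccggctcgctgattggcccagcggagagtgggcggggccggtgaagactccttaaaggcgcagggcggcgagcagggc
Hspb1: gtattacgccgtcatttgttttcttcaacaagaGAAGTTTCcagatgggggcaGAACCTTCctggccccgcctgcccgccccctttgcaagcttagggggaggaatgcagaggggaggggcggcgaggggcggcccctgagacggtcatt
Hspe1: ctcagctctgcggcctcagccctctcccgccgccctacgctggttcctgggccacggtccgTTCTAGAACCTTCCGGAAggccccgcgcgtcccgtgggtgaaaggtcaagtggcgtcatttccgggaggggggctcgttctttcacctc
Hsph1: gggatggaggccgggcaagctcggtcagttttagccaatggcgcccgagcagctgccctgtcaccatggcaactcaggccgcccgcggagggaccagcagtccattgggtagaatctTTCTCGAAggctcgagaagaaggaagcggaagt
Hspe1 held 3 overlapping matches, Hspb1 2, and Hspa1b and Hsph1 1 each in these windows. In windows from 250 bases before to 50 after the start, 8 of 13 chaperone genes that were at least 2-fold higher and had a RefSeq promoter held a match (61.5%), against 17.0% of 27025 genes with a promoter. Among the 50 named genes that led the increases, whatever their function, 6 of 37 with a promoter held one (16.2%), and among the 50 that led the decreases 6 of 39 did (15.4%). Of ATF4 targets that were at least 2-fold lower, 4 of 13 held one (30.8%). Chaperone list members that were not 2-fold higher were not counted, so a relation between the motif and the change was not tested. A match is a string of letters and shows no binding.

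Hspa1b, which encodes the stress-inducible HSP70, had 1 read in chromatin without heat shock and 509 after it, a ratio of 478.5 (85.5 to 18940). In cytoplasm it had 0 and 304 reads, at least 75.5-fold higher when the library at 0 is set to a floor of 3 reads. Its near-identical copy Hspa1a, a wider-rule name, had 5 and 244 reads in chromatin, and reads may have been split between the copies, so neither value stands alone. Unstressed cells had at most 5 reads of either in each fraction. Hsph1, which encodes an HSP110 nucleotide exchange factor for HSP70 and is a wider-rule name, had 723 and 46019 reads, 59.8-fold higher (55.6 to 64.5), and in cytoplasm 396 and 4565. It alone took 0.236% of chromatin reads after heat shock and 0.00394% without. Hspa4l, another HSP110 member, had 559 and 6455 reads, 10.9-fold higher. The constitutive Hspa8, a wider-rule name, was 8.41-fold higher with 872 and 7805 reads. Hspa4 (1.19-fold), Hspa13 (1.16-fold) and Hspa14 (1.26-fold) differed little, the mitochondrial Hspa9 stood at 0.639 of its unstressed level, and Hspa12b was the member that was more than 2-fold lower, with 139 and 46 reads.

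Hspb1, a small heat shock protein that holds unfolded clients, had 8 reads without heat shock and 1397 after it, a ratio of 164 (83.1 to 381), and in cytoplasm 9 and 649 reads. Bag3, a partner of HSP70 in selective autophagy, had 496 and 3335 reads, 6.32-fold higher (5.75 to 6.96), with 90 and 678 in cytoplasm. Hspb8, which works with Bag3, was 3.01-fold higher with 617 and 1976 reads. Bag1, Bag2, Bag4 and Bag5 lay between 1.34-fold and 1.99-fold. Hspb2, Hspb3, Hspb6 and Hspb7, known from muscle, had at most 20 reads in a chromatin library and were not kept.

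Among HSP90 and its co-chaperones 6 of 12 kept members were at least 2-fold higher and 0 were 2-fold lower. Hsp90ab1, the constitutive HSP90, had 1949 and 13285 reads in chromatin, 6.41-fold higher (6.11 to 6.72), while in cytoplasm its 5577 and 7249 reads gave 0.968 of the unstressed level. Chordc1 (5.11-fold), Stip1 (4.95-fold), which links HSP70 to HSP90, Ahsa1 (4.87-fold), which activates the HSP90 ATPase, and Fkbp4 (3.38-fold) were higher as well. Ptges3, the p23 co-chaperone, was 2.04-fold higher and lies at the threshold. Stip1, Ahsa1 and Fkbp4 stood at 1.05, 1.09 and 0.954 of their unstressed level in cytoplasm, so the chromatin ratio was the larger one for each. All 3 cytoplasmic values lie above the cytoplasmic median of all genes, and the difference between fractions was not tested.

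J-domain proteins hand clients to HSP70. Of 16 kept members named by the main rule, 1 was at least 2-fold higher, the histone chaperone Dnajc9 (2.73-fold), and the list median was -0.08. Under wider-rule names Dnajb1, the main stress-inducible J-domain protein, had 53 and 2264 reads, 40.2-fold higher (30.6 to 53.8), and Dnaja1 (6.92-fold) and Dnajb4 (4.59-fold) were higher too. The same rule added 3 lower members, Dnajb5, Dnajc16 and Dnajc18. The mitochondrial chaperonin pair, which is read from a shared bidirectional promoter, was higher in both genes: Hspd1 had 1010 and 7997 reads (7.44-fold, 6.97 to 7.95) and Hspe1 149 and 1514 (9.55-fold, 8.07 to 11.4). These neighbours overlap in the annotation, so reads near their starts cannot be assigned with certainty. Subunits of the cytosolic chaperonin named by the main rule lay between 1.08-fold (Cct4) and 1.90-fold (Cct8). Heat shock factors and polyubiquitin genes had 3 of 5 kept members at least 2-fold higher and 0 lower (median 1.45), among them the polyubiquitin gene Ubb with 83 and 241 reads, 2.73-fold higher (2.12 to 3.55). Hsf1 itself stood at 0.901 of its unstressed level with 839 and 804 reads. Zfand2a, an arsenite- and heat-inducible partner of the proteasome that is on no list, had 125 and 4158 reads, 31.3-fold higher (26.2 to 37.7).

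**Figure D2:**
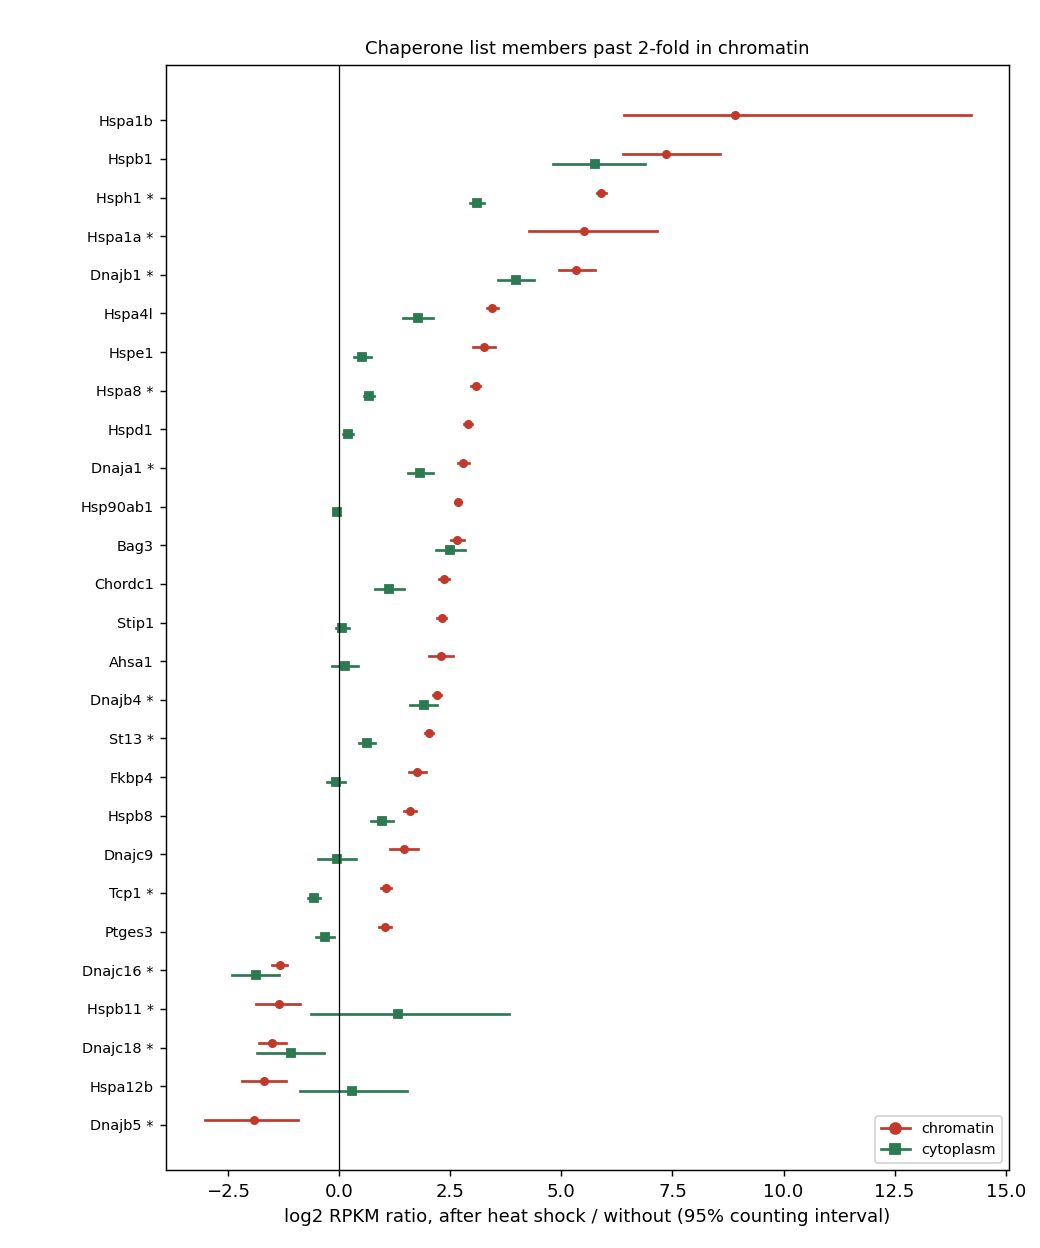
Log2 RPKM ratio (x axis) of the chaperone list members past 2-fold in chromatin, with 95% counting intervals; circles are chromatin and squares cytoplasm, an asterisk marks a wider-rule name, and values that are bounds or have no fold are not drawn. Hspa1b and Hspb1 lie farthest right in chromatin, and Hsp90ab1, Stip1, Ahsa1 and Fkbp4 lie near 0 in cytoplasm.

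Mitochondrially encoded RNA took more chromatin reads after heat shock. All 14 tRNAs of the heavy strand transcript and all 8 of the light strand transcript were at least 2-fold higher in chromatin after heat shock, with list medians of 4.25 and 3.24 on the log2 scale. All 22 had spans equal to those of RefSeq, but tRNAs differ by only a few bases in length, so the span distinguishes them weakly. mt-Tf had 65 and 2911 reads, 42.1-fold higher (32.9 to 54.7), and mt-Ti 27 and 1230, 42.8-fold (29.3 to 65.2). mt-Ty had 1 and 243 reads, and its interval of 40.6 to 9059 shows how little the single read fixes. mt-Te, the smallest increase, had 678 and 3495 reads, 4.85-fold (4.46 to 5.27). The ribosomal RNAs mt-Rnr1 and mt-Rnr2 were 3.41-fold and 2.75-fold higher. Of 8 kept mRNAs 7 were at least 2-fold higher, from mt-Co1 (3.25-fold) to mt-Nd1 (11.6-fold), and mt-Nd6, the mRNA of the light strand, was 1.54-fold higher. On the compact mitochondrial genome 7 of the 8 kept mRNAs overlap another gene, so that 1 was left when overlapping genes were set aside.

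These RNAs are made in mitochondria, which the cytoplasmic fraction holds. The 22 tRNAs together took 0.0140% of chromatin reads without heat shock (0.0135 to 0.0146) and 0.136% after it (0.134 to 0.137), against 0.345% and 0.451% of cytoplasmic reads. In cytoplasm 2 of the 22 were at least 2-fold higher and their median log2 ratio was 0.32, against -0.62 for all genes there. Small structured RNAs did not move together. The 7 named by either rule jointly took 0.25% of chromatin reads without heat shock and 0.247% after it. The cytoplasmic Y RNAs Rny1 (54 and 494 reads, 8.60-fold) and Rny3 (236 and 916, 3.65-fold) were higher, and so were Rpph1 (3.46-fold) and Rn7sk (2.44-fold), which act in the nucleus, while Rmrp stood at 0.693. The part of cytoplasmic or mitochondrial carry-over in these ratios was not tested.

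**Figure D3:**
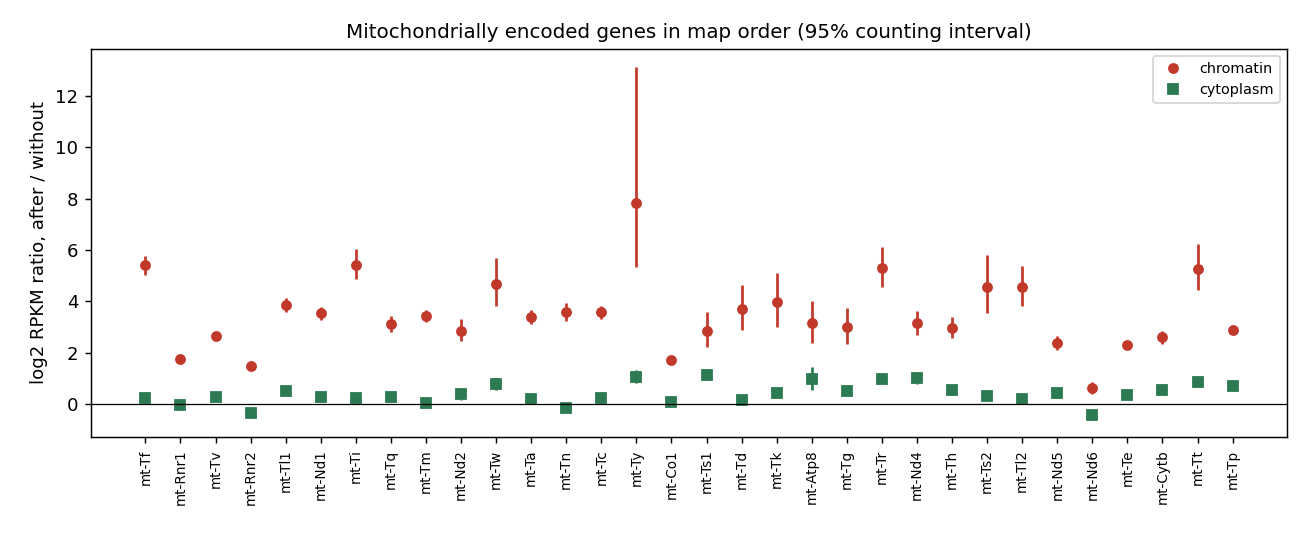
Log2 RPKM ratio after heat shock over without (y axis) of the kept mitochondrially encoded genes in the order of the mitochondrial map (x axis), with 95% counting intervals; circles are chromatin and squares cytoplasm. All chromatin values lie above 0, with mt-Nd6 lowest, and cytoplasmic values of the tRNAs run from -0.16 to 1.14.

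Most listed targets of ATF4 were lower. Of 24 kept members of the list, 17 were at least 2-fold lower (70.8%, against 18.5% of all kept genes), 0 were at least 2-fold higher, and the median log2 ratio was -1.41. With wider-rule names 19 of 26 were lower, and 11 of 16 were when members that overlap another RefSeq gene were set aside. Cth, which makes cysteine from cystathionine, had 710 reads without heat shock and 37 after it, 20.4-fold lower (14.7 to 29.2). Trib3, a pseudokinase that feeds back on ATF4, had 1241 and 92 reads, 14.3-fold lower (11.6 to 17.9). Pck2, the mitochondrial phosphoenolpyruvate carboxykinase, had 2626 and 292 reads, 9.57-fold lower (8.47 to 10.8). Aldh1l2 of mitochondrial folate metabolism had 5405 and 645, 8.91-fold lower (8.21 to 9.69), and Asns, asparagine synthetase, 2835 and 585, 5.16-fold lower (4.71 to 5.64). The serine synthesis genes Phgdh and Psph stood at 0.390 and 0.499 of their unstressed levels, and the amino acid transporter subunits Slc7a5 and Slc3a2 at 0.418 and 0.378. Ddit3, which encodes the stress factor CHOP, had 412 and 125 reads.

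The list was not uniform. Atf4 itself stood at 0.670 (701 and 500 reads), Chac1 at 0.715 (848 and 645), Cebpb at 1.04 and Ppp1r15a, the phosphatase subunit that ends the integrated stress response, at 1.11. In cytoplasm, over 22 members with at least 50 cytoplasmic reads, the median log2 ratio was -0.63, next to -0.62 for all genes. There 1 member was at least 2-fold lower, against 21.6% of all genes, and 3 were at least 2-fold higher, against 4.76%. The 3 higher ones were Chac1 (53 and 212 reads), Ddit4 (38 and 141) and Ppp1r15a (9 and 65), and the lower one was Atf4 (528 and 254). Trib3 had 35 and 47 reads there.

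An amino acid response element, the site at which ATF4 and its partners act, was searched as TGATGNAA on both strands in the same promoter windows. It was present in 5 of 13 ATF4 targets that were at least 2-fold lower (38.5%). It was also present in 2 of 37 leading higher genes (5.41%), in 5 of 39 leading lower genes (12.8%) and in 4.51% of all genes with a promoter. The list was chosen as known ATF4 targets, and its members that were not 2-fold lower were not counted. A relation between the motif and the change was therefore not tested. The promoter of Chac1 is shown because that target was within 2-fold in chromatin and 2.98-fold higher in cytoplasm, at chr2:119351042-119351241 (plus strand, GRCm38.p6), the 200 bases before the start with the match, on the opposite strand, in capitals.
Chac1: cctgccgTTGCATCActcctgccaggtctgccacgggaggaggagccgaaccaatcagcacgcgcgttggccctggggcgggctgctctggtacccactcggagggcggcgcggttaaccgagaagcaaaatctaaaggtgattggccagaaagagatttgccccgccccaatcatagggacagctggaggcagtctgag
The antioxidant response element TGANNNNGC was found in 40.5% of leading higher, 51.3% of leading lower and 45.0% of all genes.

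**Figure D4:**
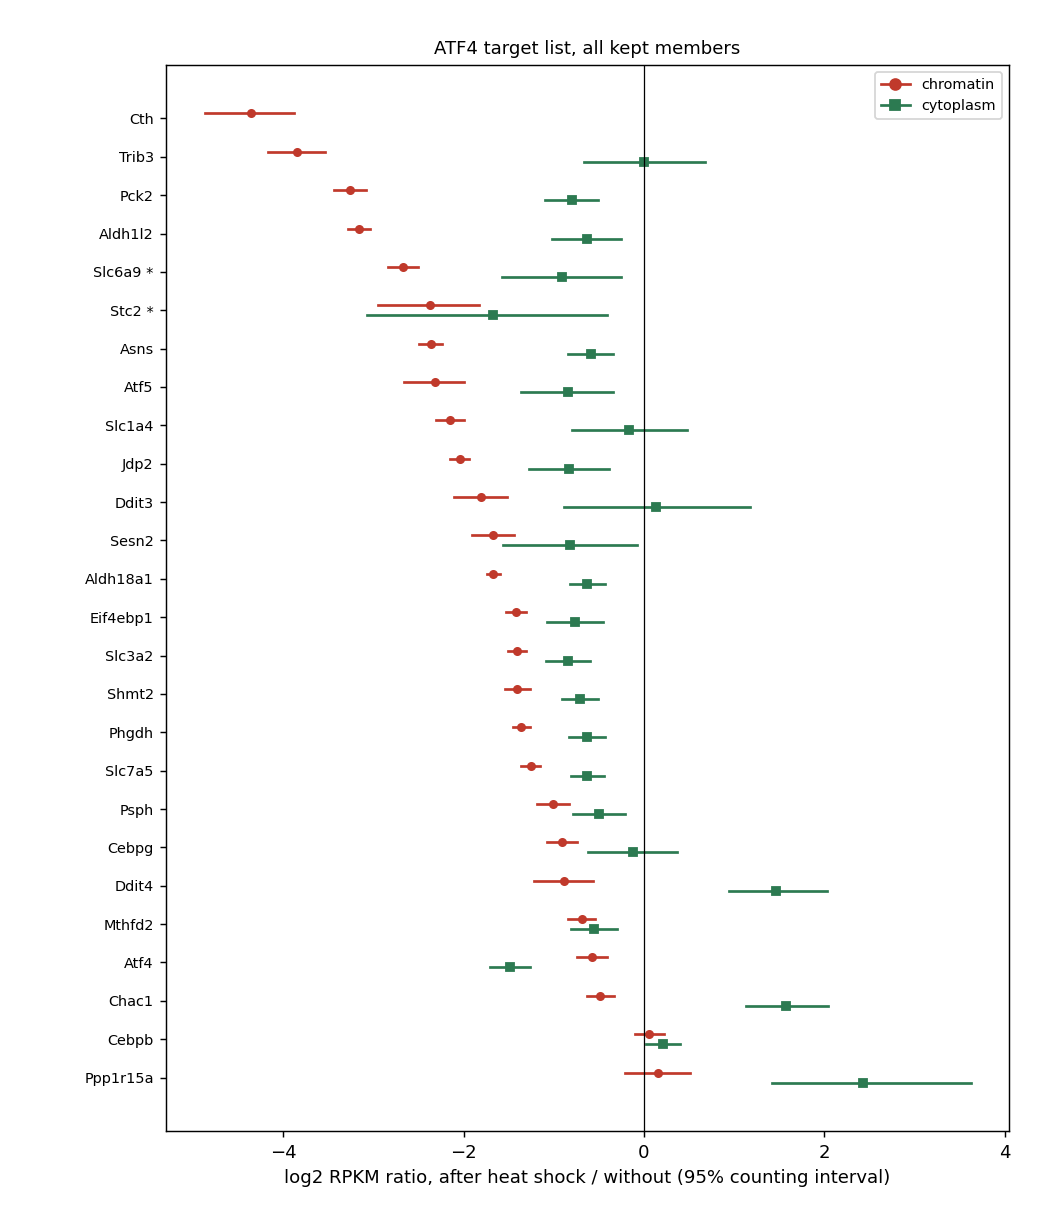
Log2 RPKM ratio (x axis) of all kept members of the ATF4 target list, with 95% counting intervals; circles are chromatin, squares cytoplasm, an asterisk marks a wider-rule name, and values with no fold are not drawn. Cth lies farthest left in chromatin, and Ppp1r15a, Chac1 and Ddit4 lie right of 0 in cytoplasm.

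Cytosolic aminoacyl-tRNA synthetases, which charge tRNAs and include ATF4 targets, had 6 of 20 members at least 2-fold lower and 1 higher (median -0.51). Among all kept genes 18.5% were lower and 17.2% higher. Eprs (8671 and 2875 reads), Gars (6180 and 2072) and Mars1 (1924 and 733) were lowest, and Qars was 2.03-fold higher with 254 and 549 reads. With genes that overlap another RefSeq gene left out, 2 of 10 were lower. ER chaperones and the unfolded protein response, which serve folding in the endoplasmic reticulum, had 5 of 20 members at least 2-fold lower and 0 higher (median -0.61). Herpud1 (1626 and 389 reads), Pdia6, Sel1l, Xbp1 and Dnajc10 were those 5. The 5 chaperone lists above had a median of 0.42, and all kept genes -0.09.

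Immediate early genes, which answer growth signals and stress without new protein, had 13 of 25 kept members at least 2-fold higher and 1 lower (median 1.15). The shares of all kept genes were 17.2% and 18.5%. Fosb of the AP-1 factor had 14 and 425 reads, 28.5-fold higher (16.8 to 52.6), and in cytoplasm 4 and 69. Gadd45g was 16.9-fold higher (41 and 735 reads) and Dusp1, a phosphatase of MAP kinases, 11.7-fold higher (149 and 1854), with 15 and 574 in cytoplasm. Gadd45a, a related stress gene, was 4.86-fold lower with 347 and 76 reads. Set to the same RPKM sum, 8 of 25 were higher and 2 lower.

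**Figure D5:**
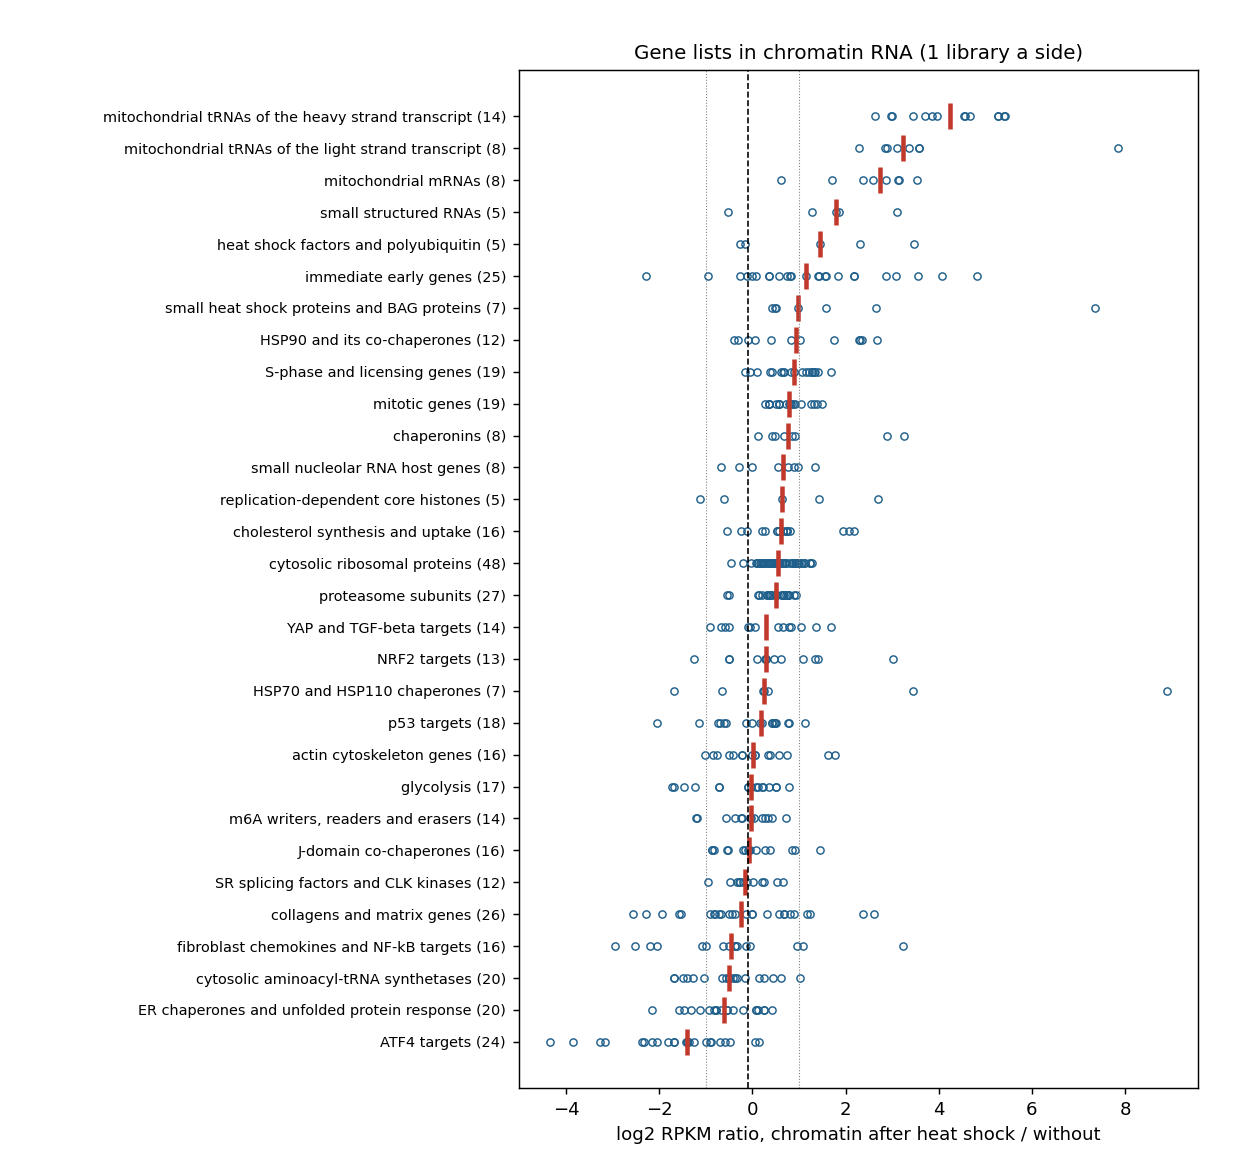
Log2 RPKM ratio (x axis) of the kept members of each gene list with at least 5 of them (open circles; kept members in brackets), named by the main rule. Red bars are list medians, the dashed line is the median of all kept genes, -0.09, and dotted lines mark a 2-fold difference.

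Growth and cell cycle lists had smaller ratios. Their counts are to be read against 17.2% higher and 18.5% lower among all kept genes. S-phase and licensing genes had 9 of 19 at least 2-fold higher and 0 lower (median 0.89), led by Mcm3 of the replicative helicase (722 and 2467 reads, 3.21-fold). In cytoplasm Mcm3 stood at 0.782. Mitotic genes had 5 of 19 higher and 0 lower (median 0.78), among them Kif11 (2.83-fold) and Cenpf (2.61-fold). Set to the same RPKM sum, 1 of 19 S-phase genes and 0 of 19 mitotic genes were at least 2-fold higher. Cytosolic ribosomal proteins had 8 of 48 higher, near the share of all kept genes, and 0 lower (median 0.56). On the scale of the same RPKM sum 0 were higher. Proteasome subunits had 0 of 27 past 2-fold either way (median 0.50), as had SR splicing factors and CLK kinases with 0 of 12 (median -0.15).

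Matrix genes lay near the shares of all kept genes. Of 26 kept collagens and matrix genes 5 were at least 2-fold lower and 4 higher (median -0.25), against 18.5% and 17.2% of all kept genes. Fn1, fibronectin, lost the largest share of chromatin reads, with 87932 and 15864 reads, 5.90-fold lower (5.80 to 6.00), while its cytoplasmic ratio was 0.704. Col1a2 (8206 and 1789 reads) and Col5a2 (17800 and 4959) were lower too. Thbs1 (181 and 1185, 6.15-fold) and Col12a1 (502 and 2770, 5.19-fold) were higher. Chemokines and NF-kB targets had 5 of 16 lower and 2 higher (median -0.45), with Cxcl1 at 1148 and 214 reads and the cytokine gene Il11 at 7 and 70. Glycolysis genes had 4 of 17 lower and 0 higher (median -0.02): Pfkp, Eno2, Pdk1 and Hk2. Cholesterol genes had 3 of 16 higher, near the share of all kept genes, and 0 lower (median 0.62). Insig1 (4.21-fold) and Idi1 (4.52-fold) were among the higher ones.

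Counts of the remaining lists are to be read against 17.2% higher and 18.5% lower among all kept genes. NRF2 targets had 4 of 13 higher and 1 lower (median 0.29), with Hmox1 at 225 and 639 reads. Among p53 targets 1 of 18 was higher and 2 were lower (0.18). YAP and TGF-beta targets had 3 of 14 higher and 0 lower (0.30), and actin genes 2 of 16 higher and 1 lower (0.02). Host genes of small nucleolar RNAs had 1 of 8 higher and 0 lower (0.66). Genes of the m6A machinery had 0 of 14 higher and 2 lower (-0.03), the eraser Fto (14531 and 6663 reads) and the reader Igf2bp3 (3954 and 1848). Wtap, a subunit of the m6A writer, stood at 0.974 in chromatin (1118 and 1158 reads) and was 4.42-fold higher in cytoplasm (205 and 1216). Of 4 kept nuclear long noncoding RNAs none passed 2-fold: Malat1 had 209301 and 160839 reads, and Neat1, the scaffold of paraspeckles, 49887 and 81804 (1.54-fold), while Neat1 had 1818 and 581 reads in cytoplasm. Linker histones had 2 of 3 lower (H1f0 and H1f3), core histones 2 of 5 higher and 1 lower, and Mt2, the kept metallothionein, was 1.20-fold higher with 51 and 65 reads. No member of the small nucleolar and spliceosomal RNA lists could be named.

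The genes with the largest increases were mostly on no list. They were ranked by the interval bound nearest to 1, and of the first 50 higher genes 18 had a name by the main rule, 8 by the wider rule and 24 none. Among the first 25 that could be named, 5 were members of a list and 22 had at most 25 reads without heat shock. The 20 on no list had 0 to 125 reads without heat shock, 114 to 4158 after it and 1 to 518 in cytoplasm after it. Cldn11, a tight junction protein of myelin and testis, had 0 and 785 reads, at least 246-fold higher against a floor of 3 reads. Btla, an inhibitory receptor of lymphocytes, had 0 and 550 reads, at least 172-fold higher. Cd3e of the T cell receptor had 1 and 448 reads, and Tph2, which makes serotonin in neurons, 8 and 1194. Ppp1r1c (25 and 2710), Them7 (13 and 1509), Cped1 (7 and 931), Ccdc81 (4 and 913) and Tagln3 (23 and 1600) also had few reads without heat shock. Beside these values, all 7 named blood markers had a read after heat shock, 698 reads together. Cd3e held 448 of them and Ptprc 41. Of the myeloid markers Cd68 had 198 reads, Csf1r 5, Adgre1 4 and Lyz2 1. The part of other cells was not tested. Names of these leading genes, and of the leading lower genes below, were recalled with candidate symbols of matching span in view. For both groups the span is therefore no independent check.

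Among the largest decreases were very long genes. The 21 of the first 25 named lower genes that are on no list had a median span of 118064 bp, against 34984.5 bp for the 20 higher ones. The ranking favours genes with many reads. These lower genes had 135 to 24977 reads without heat shock, and the higher ones 114 to 4158 after it. The span of all kept genes was not set beside these medians, so a relation between span and change was not tested. Sox5, a transcription factor of cartilage and other lineages with a span of 953553 bp, had 24977 and 1411 reads, 18.8-fold lower (17.8 to 19.9). Niban1, a stress-induced gene, had 9990 and 804, 13.2-fold lower (12.3 to 14.2). Wwox (7228 and 740) and Immp2l (10461 and 1309) were lower as well. Car6, a secreted carbonic anhydrase, led the ranking with 210 and 1 reads.

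By share of reads, loci that collect ribosomal RNA reads gained most among named genes. Gm42418 took 8.01% of the reads of unstressed chromatin and 6.03 percentage points more after heat shock, and Lars2 2.92% and 4.44%. In cytoplasm the same loci took 44.6% and 47.4%, and 14.4% and 14.5%. ENSMUSG00000097971, recalled as Gm26917 of the same list but with no RefSeq span to check, took 6.71% and 9.70%. It stayed in the totals when only the named loci and mitochondrial genes were left out. Of the other named genes Hsph1 gained 0.232 percentage points and Neat1 0.147, while Fn1 lost 0.398 and Malat1 0.316.

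Neighbours within 20000 bp of the first 10 named higher genes were looked up in RefSeq, which gave 18, of which 2 could be named in the files. Both lie beside Hspa1b: Hspa1a, 10121 bp away on the same strand, and Hspa1l, 13465 bp away on the other strand, which had 1 and 3 reads.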

How the data were processed

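RNA-seq of chromatin and cytoplasm was deposited by the authors as 1 RPKM value per Ensembl gene. Per the labels' protocols, buffers held α-amanitin, nuclei were lysed with urea, the pellet was taken as chromatin, and short fragments were selected on a gel. Cutadapt, STAR and GRCm38 are named without versions, per the submitters' processing notes, while for the counter, annotation and strand handling the sources used here give nothing, so overlapping genes are uncertain. Library totals, reads and gene spans were recovered as whole numbers from the deposited RPKM values, which left 0 genes unrecovered. The step was also tested on simulated data. Recovered reads are the smallest that fit and can be too few. Plain RPKM ratios were taken for genes with at least 50 reads over both chromatin libraries, and called at 2-fold. Named genes are the first 25 each way by the interval bound nearest to 1, list members with the bound furthest from 1, the 10 largest gains and losses in share, and neighbours, of which a few genes are not reported here.

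Gene names rest on identifiers recalled from memory, 919 in all, since no table pairs them with symbols. Of these, 900 were listed in the files and 899 had a RefSeq span (GRCm38.p6). The 5% tolerance was settled before it was applied and named 667, and a median of 1.53% of all RefSeq genes would have passed the check of a given identifier. For the leading higher and lower genes the check was not independent, since candidate symbols were in view. The wider rule was added after seeing which genes failed; it named 148 more, with a median of 8.29% of RefSeq genes passing. The other 85 listed identifiers, that recalled for Hsp90aa1 among them, were left unnamed. Members and lists were chosen with earlier results of these data known. Calculations ran in Python 3.11.15 with scipy 1.17.1, pandas 2.3.3 and numpy 2.4.6.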

Additional observations from a re-analysis of the deposited data

Results flagged for a closer look

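Among the genes reported here, 4 with at least 50 cytoplasmic reads were past 2-fold in opposite directions in chromatin and cytoplasm, with 1 library each, and the difference was not tested. Over all kept genes with that many cytoplasmic reads, 42 of 856 that were higher in chromatin were lower in cytoplasm, and 30 of 1389 that were lower in chromatin were higher there. Eno2, a glycolytic enzyme, had a log2 ratio of -1.67 in chromatin (957 and 321 reads) and 1.52 in cytoplasm (26 and 100). Srxn1, which repairs peroxiredoxins, had 1.34 in chromatin (98 and 264) and -1.11 in cytoplasm (133 and 83). The histone genes Hist1h2bc (1.44 in chromatin, -1.61 in cytoplasm) and Hist1h2bk (2.69 and -1.46) share sequence with other histone genes and had at most 133 reads in a chromatin library.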

How the results depend on the processing

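The count of genes at least 2-fold higher, 2216, became 499 with a pseudocount of 1 RPKM and a mean of at least 1 RPKM, 1463 with a pseudocount of 0.1, 3428 and 1146 at minimums of 20 and 200 reads, 5357 with no minimum and 1342 at the same RPKM sum. The count at least 2-fold lower, 2394, became 220 with the pseudocount of 1 and 5036 at the same RPKM sum. The median log2 ratio became 0.12 with that pseudocount, 0.10 with no minimum and 0.13 without the 10 genes with the most reads. It became 0.04 without named mitochondrial genes and named loci that collect ribosomal RNA reads, and -0.73 at the same RPKM sum. Of 3409 values of single named genes under these settings, 755 moved by at least 0.5 on the log2 scale. They include all 601 kept genes named by the main rule at the same RPKM sum. That scale lowers every log2 ratio by 0.64, so these moved by construction. Over all genes, leaving out overlapping ones was not run, since positions are known only for named genes. For lists it removed members: chaperonins at least 2-fold higher went from 2 of 8 to 0 of 4, and ATF4 targets at least 2-fold lower from 17 of 24 to 11 of 16. The wider naming rule was chosen after seeing the data. No paired analysis was possible because each group has 1 library. With 1 library a side, counting intervals leave out variation between cultures, and few reads limit genes near 0.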
